A study of Mus musculus with 17 samples.

Results

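A set of 9 genes of the mouse oviduct epithelium was followed across 17 libraries of perigonadal white adipose tissue (pWAT). They were taken by Ensembl gene identifier from a list of oviduct markers and are 9 of the 55401 genes in the files. They were chosen by their normalized counts in females, by whether these rise with ovary genes and by the background in males, so those values are a description without a test. The comparison between genotypes did not choose the genes and was tested.

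The mice were C57BL/6J wild-type (WT) animals and U90926 knockout littermates (U9-KO), homozygous for a deletion of all 5 exons of the long non-coding RNA gene U90926. Both came from heterozygous breeders and moved to the phenotyping centre at 7 weeks of age. They ate standard chow and were killed with CO2 at 16 weeks. No treatment is described beyond the centre's tests, which included a glucose tolerance test after food withdrawal and imaging under anaesthesia. Which of these tests the sequenced mice had is not given. There were 5 WT females, 5 U9-KO females, 3 WT males and 4 U9-KO males, each giving 1 library from whole pWAT. Values are the authors' normalized read counts per gene, rounded to whole numbers, and each library summed to between 20243688 and 28620744 of them. U90926 itself was at 1 in WT female 3 and WT male 2 and at 0 in the other 15 libraries, so it could not check the genotype labels. Xist, the non-coding RNA of the inactive X chromosome, was at 16816 to 23746 in females and 4 to 41 in males, and the Y-linked Ddx3y at 0 to 18 in females and 3006 to 3556 in males. Adipoq, which encodes the adipocyte hormone adiponectin, was at 27618 to 72328 in females and 43506 to 64789 in males.

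The oviduct carries the egg from the ovary to the uterus, and in females perigonadal fat lies against the ovary, the oviduct and the uterine horn. Its lining is a sheet of secretory cells, which release glycoproteins into the tube, and of multiciliated cells, whose beating cilia move fluid and gametes. A motile cilium is built on a core of microtubules that carries dynein motor arms, radial spokes and stabilising filaments. Ovgp1 encodes oviductal glycoprotein, a secreted product of the secretory cells, and Pax8 a transcription factor of epithelia that derive from the Müllerian duct, the embryonic duct of the oviduct and uterus. Epcam and Cdh1 encode adhesion proteins of epithelial cells in general. Foxj1 is a transcription factor that switches on motile cilium genes, Dnah5 a heavy chain of the outer dynein arm, Tekt1 a filament protein of ciliary microtubules, Rsph1 a radial spoke head protein and Cfap126 a cilium protein.

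RefSeq promoter sequence (GRCm38.p6) was held for 6 of the 9 genes. Foxj1, Cdh1 and Rsph1 were not in the table. The promoters of Ovgp1, the gene that varied most between females, and of the axonemal genes Dnah5 and Tekt1 are shown 5′ to 3′ for the bases outside annotated exons. Ovgp1 and Dnah5 are on the plus strand, at chr3:105973552-105973710 and chr15:28203516-28203751, and Tekt1 is on the minus strand, at chr11:72361883-72362132. The Tekt1 window is 1 of 2 in the table and lies in the first intron of a longer annotated transcript. The other, at chr11:72361297-72361546, held no match to the motifs below. Capitals mark GTTGCC or its reverse complement GGCAAC, a half-site of the RFX factors.
Ovgp1: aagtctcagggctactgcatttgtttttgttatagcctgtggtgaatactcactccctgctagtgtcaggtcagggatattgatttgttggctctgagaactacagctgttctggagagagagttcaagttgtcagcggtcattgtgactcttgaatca
Dnah5: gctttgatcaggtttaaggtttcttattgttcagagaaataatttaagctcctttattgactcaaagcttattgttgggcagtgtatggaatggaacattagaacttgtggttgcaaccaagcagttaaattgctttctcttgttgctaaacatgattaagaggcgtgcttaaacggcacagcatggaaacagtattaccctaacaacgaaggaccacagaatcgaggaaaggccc
Tekt1: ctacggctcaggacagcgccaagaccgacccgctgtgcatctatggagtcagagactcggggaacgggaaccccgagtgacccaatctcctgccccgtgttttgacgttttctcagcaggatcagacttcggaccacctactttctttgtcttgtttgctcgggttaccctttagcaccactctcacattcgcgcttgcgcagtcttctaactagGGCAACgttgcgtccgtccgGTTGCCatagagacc

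The half-site GTTGCC, searched on both strands, was in 1 of the 9 promoters that the 6 genes have in the table, that of Tekt1, which held it in both orientations. It was in 10.4% of all 32851 promoters and in 34.7% of the 72 promoters of a wider list of motile cilium genes. A forkhead core, GTAAACA, was in 0 of the 9 promoters and in 3.17% of all promoters. These are matches of letters in short windows, and promoter activity was not measured.

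The secretory gene Ovgp1 (ENSMUSG00000074340, chr3:105973711-105987423, plus strand) had the widest range. In WT females 1 to 5 it was at 26, 55, 7684, 130 and 24 normalized counts, and in U9-KO females 1 to 5 at 106, 212, 22, 1256 and 47. WT female 3 and U9-KO female 4 stood far above the other 8 females, which lay between 22 and 212. In males it was at 15, 22 and 12 (WT) and 18, 22, 26 and 18 (U9-KO), so 7 of 10 females were above the highest male. WT female 1, WT female 5 and U9-KO female 3 were within the male range. Gm42890, annotated on the same strand over part of Ovgp1, was at 60 in WT female 3 and 20 in U9-KO female 4, and the union mode of counting leaves out reads that fall on both genes.

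Pax8 (ENSMUSG00000026976, chr2:24420560-24475599, minus strand) did not share the spread of Ovgp1. Its values were 43, 181, 163, 63 and 232 in WT females and 70, 183, 88, 166 and 161 in U9-KO females. Males had 0, 0 and 2 (WT) and 0, 0, 1 and 0 (U9-KO), so every female was above every male. The highest female was 5.40 times the lowest for Pax8 and 349 times for Ovgp1. Over the 10 females the 2 secretory genes had a Pearson r of 0.28 and a Spearman rho of 0.14 on log2(normalized count + 1).

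Of the adhesion genes, Epcam (ENSMUSG00000045394, chr17:87635979-87651129, plus strand) was at 119, 272, 375, 385 and 613 in WT females and 258, 325, 207, 480 and 271 in U9-KO females. In males it was at 9, 4 and 3 (WT) and 4, 0, 3 and 0 (U9-KO). Its mean of 330.5 ± 141 (SD, n = 10) in females was 101 times that of males. Cdh1 (ENSMUSG00000000303, chr8:106603351-106670246, plus strand) was at 57, 145, 611, 262 and 381 in WT females and 173, 152, 83, 311 and 128 in U9-KO females. Males had 1, 1 and 4 (WT) and 2, 2, 1 and 0 (U9-KO), and the ratio of the means was 147. Both genes were lowest in WT female 1 and had the highest correlation of the 36 pairs among the 9 genes (r = 0.87, n = 10 females).

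Among the ciliated cell genes, Foxj1 (ENSMUSG00000034227, chr11:116330704-116335399, minus strand) was at 35, 159, 169, 64 and 294 in WT females and 111, 113, 71, 328 and 137 in U9-KO females. In males it was at 1, 7 and 4 (WT) and 2, 3, 3 and 0 (U9-KO), and the female mean was 51.8 times the male mean. Dnah5 (ENSMUSG00000022262, chr15:28203752-28472052, plus strand) was at 63, 56, 105, 44 and 116 in WT females and 46, 88, 58, 355 and 67 in U9-KO females. In U9-KO female 4 it was 5.46 times the median of the females. It was at 0 in 5 of 7 males and at 1 in WT male 1 and U9-KO male 4.

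Tekt1 (ENSMUSG00000020799, chr11:72344722-72362442, minus strand) was at 21, 28, 50, 21 and 33 in WT females and 33, 36, 81, 58 and 41 in U9-KO females. Its male values of 2, 2 and 0 (WT) and 3, 3, 1 and 1 (U9-KO) were all below these. Unlike the other 8 genes it was highest in U9-KO female 3, as were 4192 of the 17792 genes that averaged at least 10 in females. Rsph1 (ENSMUSG00000024033, chr17:31255019-31277383, minus strand) was at 49, 54, 125, 69 and 106 in WT females and 64, 62, 28, 164 and 79 in U9-KO females. Its males carried a background of 11, 21 and 12 (WT) and 14, 11, 10 and 8 (U9-KO), and the ratio of the means was 6.44. The lowest female, U9-KO female 3 at 28, was close to the highest male.

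Cfap126 (ENSMUSG00000026649, chr1:171113918-171126967, plus strand) differed least between the sexes. Females had 85, 75, 90, 79 and 105 (WT) and 64, 87, 96, 103 and 66 (U9-KO), and males 42, 46 and 48 (WT) and 42, 54, 55 and 72 (U9-KO). The ratio of the means was 1.66, and 8 of 10 females were above the highest male. Size factors recomputed over all 17 libraries were 1.03 to 1.06 in females and 0.948 to 0.963 in males but within 1.00 to 1.01 inside each sex, so the deposited values were scaled for each sex on its own. With the common factors the ratio of Cfap126 was 1.53 and 7 of 10 females were above the highest male.

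**Figure D1:**
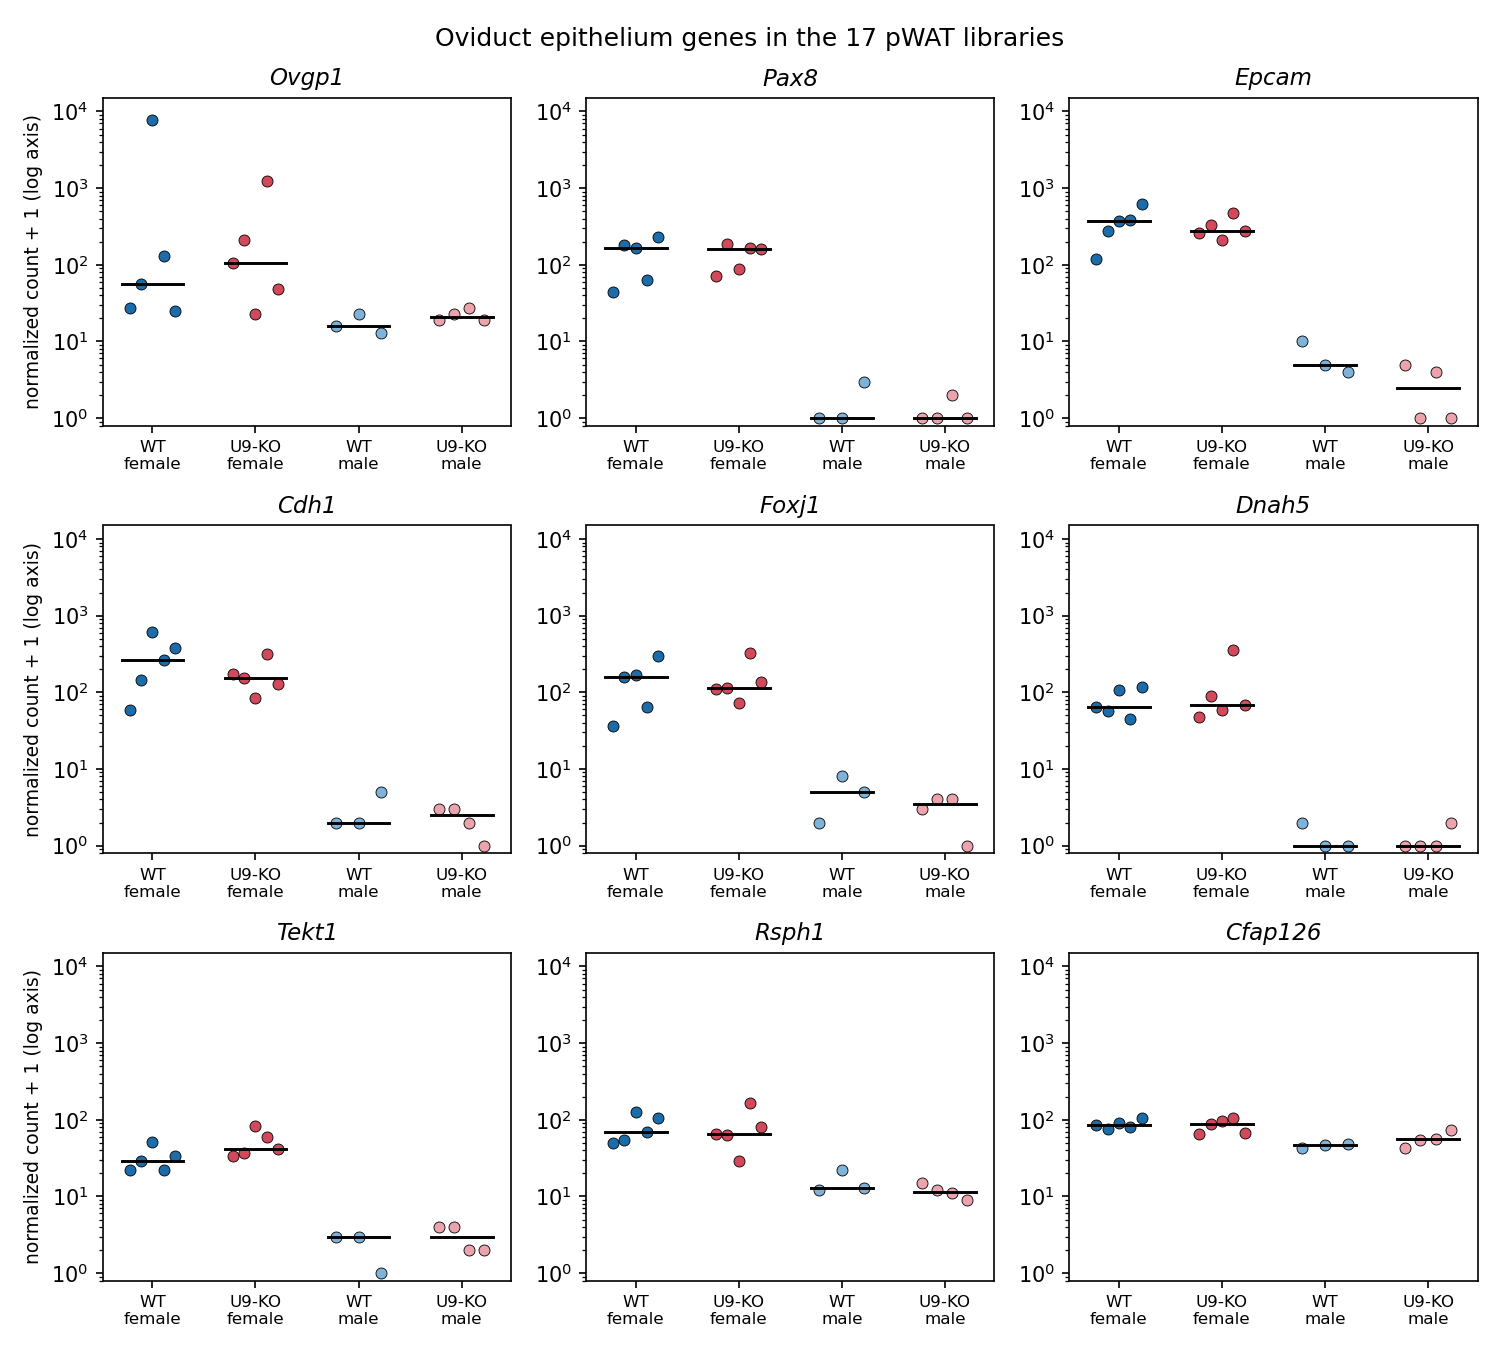
Normalized counts plus 1 (log axis) of the 9 oviduct genes, 1 panel per gene, in 5 WT females, 5 U9-KO females, 3 WT males and 4 U9-KO males. Each point is 1 mouse and the bar is the group median. The 10 females lie above the 7 males for 7 genes, Ovgp1 reaches 7684 in WT female 3, and Cfap126 keeps 42 to 72 in males.

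All 10 females lay above all 7 males for 7 of the 9 genes, the exceptions being Ovgp1 and Cfap126. The same held for 9.12% of the 26289 genes with a total of at least 10, and the opposite order for 2.66%. This level in females is what the list was chosen for and is no test. Divided by exon length, the medians over females were highest for Epcam, at 136 normalized counts per kb. Cfap126, Rsph1 and Foxj1 followed at 48.5, 48.5 and 47.7, then Cdh1 at 35.5, Pax8 at 26.7, Ovgp1 at 22.6 and Tekt1 at 21.3, and Dnah5 was lowest at 4.16. The ranges over females of all neighbours in this order overlapped. The per-kb range of Ovgp1, 6.18 to 2158, held the medians of all genes but Dnah5. In whole tissue, fewer cells of a type and less RNA per cell cannot be told apart.

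The 9 genes shared no single highest library. U9-KO female 4 was highest for Foxj1, Dnah5 and Rsph1, WT female 5 for Pax8, Epcam and Cfap126, WT female 3 for Ovgp1 and Cdh1, and U9-KO female 3 for Tekt1. U9-KO female 4 was among the 4 highest females for every one of the 9. WT female 1 was lowest for Pax8, Foxj1, Epcam and Cdh1 and shared the lowest value of Tekt1 with WT female 4. The 36 pairs had a median r of 0.49 (range 0.05 to 0.87), with 0 below 0 and 18 above 0.5. Cfap126 (median r 0.31) and Tekt1 (0.33) were least like the rest, and Tekt1 alone had no r above 0.45. All pairs share the same 10 libraries, their scaling and the piece of tissue taken.

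Ovary genes followed another order of the females. The measure was the mean of log2(normalized count + 1) over 44 granulosa, luteal, thecal and oocyte genes. It was highest in WT female 4 (9.76) and U9-KO female 1 (9.47) and lowest in WT female 1 (5.70) and U9-KO female 4 (5.95), against 3.89 to 4.41 in males. Cyp11a1, the enzyme that starts steroid synthesis, was at 54629 and 71595 in the first pair and at 597 to 14293 in the other 8 females. Amh, the anti-Müllerian hormone of growing follicles, was at 1817 and 523 there and at 4 to 204 elsewhere.

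None of the 9 oviduct genes was highest in those libraries, although 4 of them in WT female 4 and 2 in U9-KO female 1 were above the female median. WT female 4 held 63 of Pax8, 64 of Foxj1 and 44 of Dnah5, all below the median of the females, and U9-KO female 1 held 70, 111 and 46. Epcam and Cdh1 were at 385 and 262 in WT female 4, above their medians of 298.5 and 162.5. Ovgp1, at 130 in WT female 4 and 106 in U9-KO female 1, was above its median of 80.5 in both. Rsph1 at 69 in WT female 4 and Cdh1 at 173 in U9-KO female 1 were just above theirs. In U9-KO female 4, by contrast, Zp3, which encodes an egg coat protein, was at 0 and Amh at 4, both within the male ranges of 0 to 1 and 0 to 7, while Foxj1 was at 328 and Dnah5 at 355. Star and Cyp11a1, of the steroid-making cells, were still at 2118 and 3007 in that library, above the 76 to 158 and 20 to 135 of males.

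Over the 10 females the r of the 9 genes with the ovary measure had a median of -0.15 and ran from -0.58 (Dnah5) to 0.24 (Epcam). It was above 0 for Epcam and Cdh1 only, and above 0.5 for 0 of 9, where 19.7% of the 17792 genes that averaged at least 10 in females were. Spearman's rho had a median of -0.08. Without WT female 4 and U9-KO female 1, the 2 libraries farthest from the median of the measure, the median r was 0.09, 5 of 9 genes were above 0 and Pax8 reached 0.63, so the relation rests in part on those libraries. Leaving out WT female 1 moved the median to -0.53. For the parts of the measure, the 2 libraries farthest out were also left out, and these were not the same for each. Without WT female 4 and WT female 1, the median for the 16 oocyte genes went from -0.19 to -0.46, with 0 of 9 above 0. Without WT female 4 and U9-KO female 1, it went from -0.08 to 0.26 for the 15 luteal and thecal genes. For the 13 granulosa cell genes the same 2 were left out, and it went from -0.30 to -0.02. A difference between the parts cannot be told apart from the choice of libraries.

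**Figure D2:**
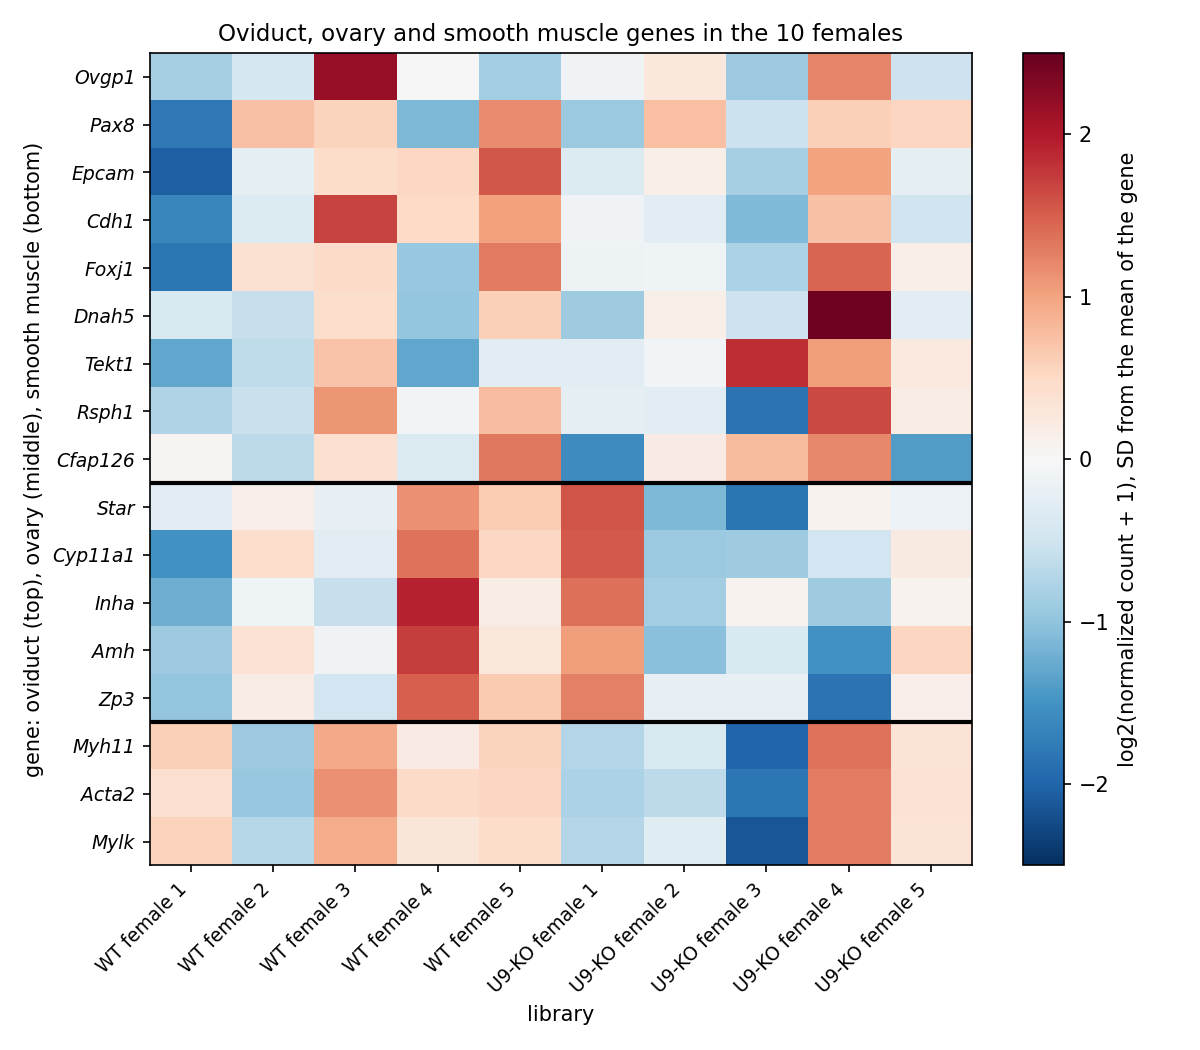
Level of each gene (rows) in the 10 females (columns), as the distance of log2(normalized count + 1) from the gene's mean in SD over the females, for the 9 oviduct genes, 5 ovary genes and 3 smooth muscle genes. The ovary genes are darkest red in WT female 4 and U9-KO female 1, the oviduct genes mainly in WT female 3, WT female 5 and U9-KO female 4.

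A list of 81 other motile cilium genes (dynein arms, radial spokes, tektins, nexin links and cilia and flagella associated proteins) was read in the same libraries. It held none of the 9, and all 81 were in the files. In females 73 had a mean of at least 10. Of these, 54 (74.0%) were highest in U9-KO female 4, against 11.4% of all 17792 genes, and 9 in WT female 3. WT female 1 was lowest for 41. Without U9-KO female 4, WT female 3 was highest for 36 of the 73.

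Ccdc153, a ciliary coiled-coil protein, was at 26, 66, 72, 53 and 41 in WT females and 50, 57, 40, 231 and 54 in U9-KO females, and at 0 to 3 in males. Rsph4a, another radial spoke head protein, was at 129 in U9-KO female 4, at 10 to 51 in the other females and at 0 to 3 in males. Both were picked after their values were seen. The 3 most abundant genes of the list had a background in males. Tppp3, a tubulin polymerisation protein also made outside ciliated cells, was at 762 to 2268 in females and 503 to 1208 in males, Ccdc114 of the dynein docking complex at 188 to 333 and 95 to 124, and Ccdc39, which sets the spacing of dynein arms, at 141 to 313 and 79 to 115. All females were above all males for 48 of the 73 (65.8%), against 13.1% of all genes with such a mean.

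The oviduct genes moved with this list. Their r with its mean log2 level had a median of 0.76 over the 10 females, and 7 of 9 were above 0.5, where 12.6% of all genes were. Foxj1 had the highest r, 0.92 (rho 0.96), and Cfap126 (0.37) and Tekt1 (0.46) were below 0.5. Seen from the other side, 63 of the 73 cilium genes (86.3%) had an r above 0.5 with the mean of the 5 ciliated cell genes, against 14.5% of all genes, and 1 of 73 (1.37%) had one with the ovary measure. Without U9-KO female 4 the count of 63 became 48. These are descriptions over 10 libraries that share their scaling.

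**Figure D3:**
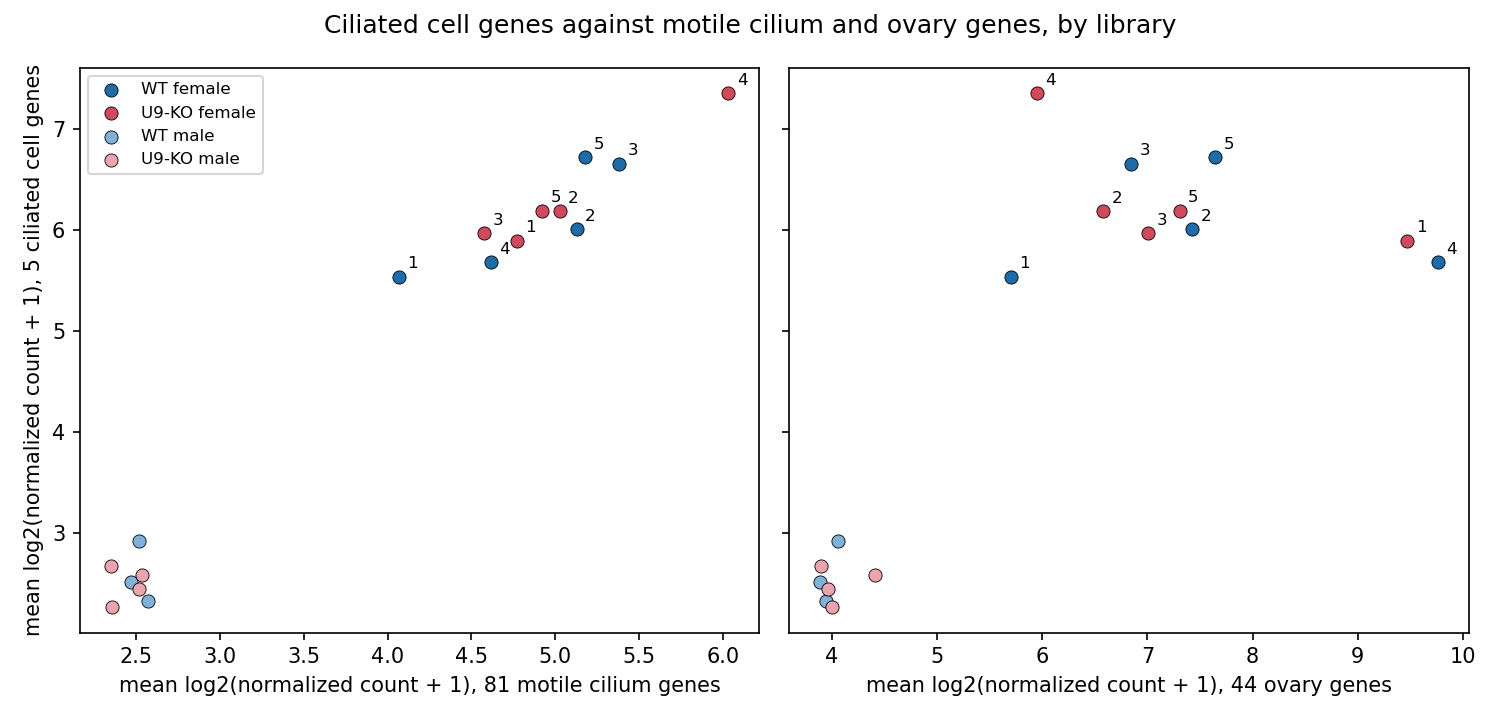
Mean log2(normalized count + 1) of the 5 ciliated cell genes (Foxj1, Dnah5, Tekt1, Rsph1, Cfap126) against that of 81 motile cilium genes (left) and 44 ovary genes (right), 1 point per mouse, with replicate numbers beside the females. The females line up with the cilium genes from WT female 1 to U9-KO female 4, while WT female 4 and U9-KO female 1, at 9.76 and 9.47 on the ovary axis, sit low on the vertical axis. The 7 males form a separate group at the bottom left.

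Regulators of ciliogenesis followed the ciliated cell genes less often than the motile cilium genes did. Of 14 listed, 11 had a mean of at least 10 in females. In U9-KO female 4, 3 of the 11 (27.3%) were highest, against 11.4% of all genes. These were Myb at 52, Trp73 at 42 and Tctex1d4 at 29. An r above 0.5 with the ciliated cell genes was found for 2 of the 11 (18.2%), against 14.5% of all genes. The cell cycle factors E2f4 and E2f5, with Rfx2 the most abundant, were at 789 to 1178 and 252 to 309 in females and 660 to 976 and 192 to 308 in males. Mcidas, which starts multiciliated cell formation, was at 1 in WT female 3 and at 0 in the other libraries, and Cdc20b was at 0 to 3. Rfx2 and Rfx3, of the family that binds the half-site shown above, were at 213 to 445 and 221 to 343 in females and 205 to 304 and 190 to 261 in males. Mcidas, Cdc20b, Rfx3, Myb, Trp73 and Tctex1d4 were picked after their values were seen. Of 30 other genes of oviduct and Müllerian epithelium, 13 were highest in WT female 5, 9 in WT female 3 and 6 in U9-KO female 4. An r above 0.5 with the ciliated cell genes was found for 25 of them. Of all 17792 genes, 873, 1786 and 2027 were highest in these 3 libraries, and 14.5% had such an r. The keratins Krt19 and Krt7 and the protease inhibitor Spint2 were the most abundant of the 30. They were at 687 to 1666, 539 to 1023 and 592 to 1377 in females. In males these were at 289 to 961, 159 to 354 and 200 to 339. Krt19 and Muc16 of this list were also in the list of mesothelial genes read below, so the lists are not separate measures.

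Muscle and mesothelial genes moved in part with the oviduct genes. Of 10 smooth muscle genes, 9 were highest in U9-KO female 4 and 9 lowest in U9-KO female 3. Of all 17792 genes, 2027 were highest in U9-KO female 4 and 3222 lowest in U9-KO female 3. The summed count of the 10 smooth muscle genes was 283324 in U9-KO female 4, 22077 to 224632 in the other females and 11021 to 14649 in males. Myh11, the smooth muscle myosin, was at 7248 to 101315 in females and 2268 to 3654 in males. The r of the 9 genes with the smooth muscle measure had a median of 0.41, highest for Rsph1 at 0.85 and lowest for Tekt1 at -0.30. With 15 mesothelial genes, led by Upk3b, Wt1 and Msln, the median was 0.47, and with 10 adipocyte genes, led by Cfd, Fabp4 and Adipoq, it was -0.09. Without the 2 farthest females on each measure these medians were 0.43, 0.42 and -0.68, the last with 0 of 9 above 0. The part of these tissues in the oviduct gene levels was not tested.

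In males, 20 genes listed for the epididymis and efferent ducts, which lie beside the gonadal fat, were near 0. Their summed count was 4 to 13 in males but 61 to 753 in females, so the list was not particular to male ducts in these libraries. The highest in males, Rnase10, was at 2 to 7 there and at 2 to 18 in females. Wfdc2 was at 0 to 5 in males and 9 to 99 in females, and Cst8 at 0 to 2 and 4 to 710. In U9-KO female 1, Cst8 alone made up 710 of the summed count of 753. Wfdc2 and Pax2 of this list were also in the list of oviduct and Müllerian epithelium genes. Lcn5, Crisp4, Rnase9, Gpx5, Spint4 and Spinkl, named after their values were seen, were at 0 in every library of both sexes. Of 13 testis germ cell genes, Sycp3 was at 72 to 191 in males but also at 53 to 217 in females, and Tssk6 and Ddx4 were at 2 to 12 and 1 to 9 in males.

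By likeness of pattern, the 10 genes closest to the mean of the 5 ciliated cell genes over the 10 females, of 17787 ranked, were Ak9 (r = 0.97), Mamstr, Fam166b, Rogdi, Pcdh15, Wdr78, Agbl2, Ubxn10, Calml4 and Ppil6 (r = 0.94). Ak9 was at 9, 14, 28, 8 and 27 in WT females and 11, 19, 11, 42 and 18 in U9-KO females. Of the 50 closest genes, 11 were in the cilium lists, which make up 0.472% of the genes ranked. Promoters were held for 9 of the 10, and 2 of these, Agbl2 and Ppil6, carried the half-site found in Tekt1. Of all 27025 genes with promoters, 11.8% carried it. Agbl2 held it in 1 of its 2 promoters. With so few genes the count of 2 cannot be set apart from that share. The windows around the half-site, on the plus strand at chr2:90782617-90782682 and chr10:41490398-41490438, read as follows.
Agbl2: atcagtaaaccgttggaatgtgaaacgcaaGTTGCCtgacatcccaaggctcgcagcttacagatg
Ppil6: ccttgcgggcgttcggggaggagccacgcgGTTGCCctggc

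The 10 genes closest to Ovgp1 were others, with 0 of the closest 50 in the cilium lists. They were AC158975.2 (r = 0.94), Igf2bp2, Fam221a, Sorcs1, Ltf, Gm6472, A2ml1, Dnajb3, Cdkl1 and Gm42427 (r = 0.90). Ltf, which encodes lactoferrin, was at 1236 in WT female 3, 107 in U9-KO female 4 and 4 to 69 in the others. A2ml1 was at 208 and 610 in the same libraries and at 0 to 25 in the others. Males did not enter this ranking, and in them Ltf was at 0 to 3 and A2ml1 at 0. Igf2bp2 was higher in males, at 307 to 707 against 156 to 285 in females. Sorcs1 was at 40 to 69 in males and 14 to 70 in females. The male medians of AC158975.2, Fam221a, Gm6472, Dnajb3, Cdkl1 and Gm42427 were below every female, but none was at 0 in any male.

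Whether loss of U90926 changed the 9 genes was tested in each sex with limma on log2(normalized count + 1), with Benjamini-Hochberg adjustment over all genes tested. None of the 9 passed in females, males, both sexes together or the sex by genotype interaction. Of all genes tested, 0 of 24825 passed in females, a share of 0%, and 0 of 21930 in males, also 0%, where leaving out WT male 1 gave 71. The study, with DESeq2, reported genes called in females and in males, and none with both sexes together. The shares given here belong to limma on the rounded values alone. At an unadjusted p under 0.05, 553 genes (2.23%) were past it in females and 1667 (7.6%) in males, and none of the 9 in either. It was 1057 of 26289 (4.02%) for both sexes and 910 (3.46%) for the interaction, again with none of the 9.

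In females the log2 fold change (U9-KO minus WT) was above 0 for 4 of the 9 genes and below 0 for 5, with a median of -0.05, and the median of all genes was 0. Tekt1 had the largest, 0.68 ± 0.32 (SE), with a 95% interval of -0.02 to 1.38 and an adjusted limma p of 1. The next were Cdh1 at -0.51 ± 0.56, Dnah5 at 0.31 ± 0.50 and Foxj1 at 0.23 ± 0.55. Pax8 was at 0.14 ± 0.47, Epcam at -0.07 ± 0.38, Rsph1 at -0.15 ± 0.42 and Cfap126 at -0.08 ± 0.18. Ovgp1 was at -0.05 ± 1.53, and its interval of -3.39 to 3.29 leaves large differences in either direction undecided. The WT and U9-KO females overlapped for all 9 genes, as they did for all but 0.238% of the genes tested. The sign depended on 1 mouse for several genes: that of Ovgp1 became 1.42 without WT female 3, that of Dnah5 became -0.18 without U9-KO female 4, and that of Foxj1 became -0.18 without WT female 1.

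In males 7 of the 9 passed the filter on low values, Pax8 and Dnah5 being too low. Epcam had the largest difference, -1.47 ± 0.74 with an adjusted p of 0.666, at 3 to 9 normalized counts in WT and 0 to 4 in U9-KO. The others were Foxj1 at -0.71 ± 0.70, Tekt1 at 0.44 ± 0.63, Cdh1 at -0.40 ± 0.65, Rsph1 at -0.38 ± 0.37, Ovgp1 at 0.37 ± 0.32 and Cfap126 at 0.27 ± 0.22. All of these genes but Cfap126 were under 30 counts in every male. The WT and U9-KO males overlapped for all 9, where 7.6% of the genes tested did not overlap. For both sexes together the adjusted p of the 9 ranged from 0.938 to 0.994, and for the interaction it was 1 for each.

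**Figure D4:**
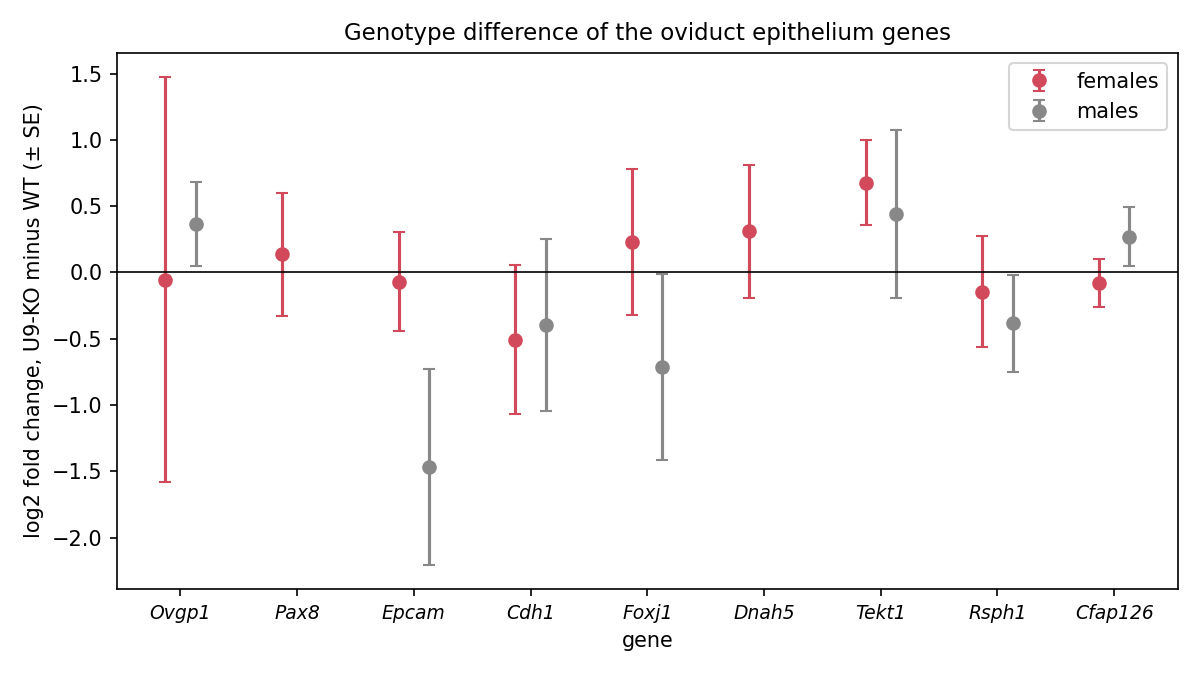
Log2 fold change (U9-KO minus WT) of the 9 oviduct genes with its standard error from limma, in females (5 against 5) and in males (3 WT against 4 U9-KO). Pax8 and Dnah5 have no male point because they were too low to test. The changes lie on both sides of 0, Tekt1 at 0.68 is the largest in females, and the error of Ovgp1 in females is 1.53.

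The 81 motile cilium genes were tested in the same fits. In females 52 were higher in U9-KO and 29 lower, with a median of 0.12, and 0 passed. Sntn, which encodes a protein of the cilium tip, had the smallest p among them, with a difference of 0.95 ± 0.38 and an adjusted limma p of 1. In males, where 54 could be tested, 22 were higher and 32 lower, with a median of -0.09 and 0 passing. Of the 30 genes of oviduct and Müllerian epithelium, 9 were higher and 21 lower in U9-KO females, and 0 passed. U9-KO female 4, which was highest for most cilium genes, is 1 of the 5 mice behind these values.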

How the data were processed

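RNA was sequenced from pWAT of 17 mice, 1 library each. Per the submitters' processing notes and the methods, directional oligo(dT) libraries were read as pairs, checked with FastQC and MultiQC, trimmed with trim_galore, and aligned to GRCm38 with STAR 2.7.3a. The authors took reads per gene from summarizeOverlaps (mode union) and normalized them with DESeq2 1.28.1. Whether counting used strand is not given in the sources used here. Pax8 and Rsph1 each overlap a gene on the other strand. The deposited values are those normalized counts rounded to whole numbers, treated as a score and not as raw counts, so no count model was run. A repeat of all libraries in 1 series table was not used. The column names of 2 male libraries differ from their labels, and the labels were followed.

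From the whole numbers that a library skips or doubles, its size factor was estimated at 0.757 to 1.4475, which puts the reads in genes at 19707134 to 31869233 per library. Counting error only is covered by such depth.

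Genes were named by GENCODE M21 (55141 of 55401 identifiers). Values were tested as log2(value + 1) with limma 3.58.1 in R 4.3.3 (mean-variance trend, genes with a total of at least 10, Benjamini-Hochberg threshold 0.05): females, males, both sexes with sex as covariate, and the interaction. The fits were tested on simulated data. Each mouse is a replicate. Correlations used Python 3.11.15 with scipy 1.17.1. RefSeq promoters hold 250 bases before the start and were shortened to the bases outside exons annotated by GENCODE. The text names the 9 genes, label checks, 5 ovary genes, genes among the 3 most abundant of each list (not all of them) and the 10 genes most alike in pattern, plus genes said to be picked after their values were seen. The 9 members and all lists were chosen with earlier results of these data known. Alternatives were pseudocount 0.5, no filter, a mean of at least 10, TMM scaling, size factors over all 17 libraries, no trend, robust variance, all mice in 1 fit, a replicate block and leaving out each mouse.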

Additional observations from a re-analysis of the deposited data

Results flagged for a closer look

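Within each group of 4 or 5 mice, each of the 9 genes was checked for a library far from the others of its group (Dixon's 95% criterion). Such a library was found in 6 of 27 groups. The groups share mice and the female values helped to choose the genes, so this count is a description and no test. The groups of 3 WT males were too small to check.

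Ovgp1 was at 7684 in WT female 3, against 24 to 130 in the other WT females, and at 1256 in U9-KO female 4, where the other knockout females had 22 to 212. U9-KO female 4 also stood apart for Foxj1, at 328 against 71 to 137, and for Dnah5, at 355 against 46 to 88. In that library 9 of 10 smooth muscle genes were at their highest among females, and the part of this in the values was not tested. Pax8 in U9-KO male 3 and Dnah5 in U9-KO male 4 were at 1 where the other U9-KO males were at 0, a difference of 1 rounded count.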

How the results depend on the processing

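The count of genes called for genotype was 0 in females, males, both sexes and the interaction as designed. It remained 0 in each of these under the mean filter, TMM scaling, size factors over all 17 libraries and robust variance. The replicate block, which paired mice by number, also gave 0 in each. All mice in 1 fit was an alternative for females and males only, and gave 0 in both. Same-numbered mice did not deviate together (r from -0.43 to 0.12 in females and -0.12 to 0.01 in males), and the block changed no call. Whether same-numbered mice shared a litter, cage or batch was not tested. Without the mean-variance trend 1 gene was called in females (Hfm1), 1 in males (4930583P06Rik) and 1 in both sexes (Kif16bos). Kif16bos was also the 1 gene called in both sexes with pseudocount 0.5 and without the filter, and Lrp8os1 the 1 called in the interaction without the filter. None of these exceeded 7 normalized counts in any library. Leaving out a mouse gave 0 calls in females, both sexes and the interaction and 0 to 71 in males, the 71 without WT male 1. None of the 9 genes was called in any of these fits. The number with all females above all males stayed at 7 of 9 with size factors over all 17 libraries, and was 7 to 8 with a mouse left out.

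The log2 fold change in females changed sign for 7 of the 9 genes when 1 mouse was left out, and for 0 under the other alternatives. With a mouse left out the ranges were -0.88 to 1.42 for Ovgp1, -0.21 to 0.39 for Pax8, -0.18 to 0.58 for Foxj1, -0.41 to 0.18 for Epcam, -0.18 to 0.55 for Dnah5, -0.46 to 0.17 for Rsph1 and -0.16 to 0.010 for Cfap126. Cdh1 (-0.99 to -0.14) and Tekt1 (0.49 to 0.87) kept theirs. In males Tekt1 alone changed sign (-0.085 to 0.71, below 0 without WT male 3). For both sexes the sign changed with a mouse left out for Ovgp1 (-0.34 to 0.96), Pax8 (-0.24 to 0.18), Foxj1 (-0.41 to 0.058) and Dnah5 (-0.14 to 0.29), and under the replicate block for Pax8 (0.012) and Foxj1 (0.052). For the interaction it changed for Ovgp1 (-1.05 to 1.25), Pax8 (-0.68 to 0.11), Cdh1 (-0.26 to 0.59, and -0.049 with pseudocount 0.5), Dnah5 (-0.64 to 0.10), Tekt1 (-0.76 to 0.029) and Rsph1 (-0.55 to 0.075). The median r with the ovary genes was -0.53 to 0.01 with a mouse left out. Without the 2 farthest females r moved by more than its jackknife error for Pax8 (0.63), Dnah5 (-0.37), Tekt1 (0.09) and Cfap126 (-0.22). With 5 females per genotype and the spread between them, large differences as well as small ones were left undecided for most of the genes. In females the 95% intervals of the log2 fold change were -3.39 to 3.29 for Ovgp1, -1.74 to 0.72 for Cdh1 and -0.98 to 1.44 for Foxj1. The narrowest was -0.47 to 0.32, for Cfap126. In males, values of 0 to 9 normalized counts for 6 of the 9 genes limit any comparison. Correlations within 1 genotype were not run, since 5 mice are too few.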

Other observations

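Of the 4 uterus genes with a mean of at least 10 in females, 3 were highest in WT female 3, the library highest for Ovgp1, as were 1786 of all 17792 genes with such a mean. Ltf was far above the rest, at 1236 against 4 to 107 in the other females and 0 to 3 in males. Hoxa10, a homeobox gene of the uterus, was at 157 there and at 5 to 116 in the other females, and Hoxd10 at 100 against 7 to 91. Msx1, the most abundant of the 4, was at 169 in that library and highest, at 470, in WT female 1. Wnt7a, made by Müllerian epithelium, was at 92 in WT female 3 and at 0 to 20 in the other females, and Hoxa11 at 37 against 0 to 9. Hoxd10, Wnt7a and Hoxa11 were picked after their values were seen. In U9-KO female 4, the second highest for Ovgp1, Wnt7a and Hoxa11 were both at 3. The remaining members of the uterus list, also named after their values were seen, went both ways. Hoxd11 was at 25 in WT female 3 and at 0 to 15 in the other females, and Prss28 and Prss29 were at 2 there. Foxa2 was at 3 in WT female 3 and 11 in U9-KO female 4, and Cxcl15 at 0 and 1. Msx2 was at 11 in WT female 3 and at 13 in WT female 2 and U9-KO female 5.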
